A study of Mus musculus with 16 samples.

Results

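Expression of 29 nuclear receptor and coregulator genes was examined in cultured aortic smooth muscle cells. The genes were chosen by name: nuclear receptors other than those for glucocorticoids and of the clock, with a set of coactivators and corepressors that bind them. Of the 29, 27 had a line in a table of 20581 genes, and all 27 were among the 14217 genes tested. Rxrg and Nr5a2 were not analysed here. The 27 comprise 22 receptors and 5 coregulators.

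Nuclear receptors are transcription factors whose activity is set by small lipid-soluble ligands, or, for the orphan members, mainly by how much of the protein is made. Many of them, among them the receptors for retinoic acid, thyroid hormone, vitamin D and fatty acids, bind DNA as a dimer with a retinoid X receptor. Coactivators of the p160 family recruit histone acetyltransferases to ligand-bound receptors, and corepressors such as NCoR1 recruit histone deacetylases. In the vessel wall, several of these receptors are known as regulators of smooth muscle proliferation, contractile phenotype and lipid handling.

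Primary smooth muscle cells were taken from the aortas of C57BL/6J mice labelled male. KO cells came from RBC.ARG1-KO mice, in which floxed Arg1 is removed by a Cre recombinase driven by the erythropoietin receptor gene, so that the deletion is in the red blood cell lineage and not in the smooth muscle cells themselves. WT cells came from littermates labelled RBC.ARG1-WT. There were 4 groups with 4 libraries each: KO cells in DIAM (KO DIAM), WT cells in DIAM (WT DIAM), KO cells in DMEM (KO DMEM) and WT cells in DMEM (WT DMEM). DIAM is DMEM with 0.1 µM dexamethasone, 1 µM insulin and 50 µg/mL ascorbic acid, given for 10 days to load the cells with lipid, while the control medium is DMEM with 10% serum. Dexamethasone is a glucocorticoid receptor agonist, and a group differs from its control in all components of the medium at once, so their effects cannot be told apart. The labels do not state whether DIAM held serum. The design text speaks of biological replicates without saying whether each culture came from its own animal, and p-values measure the spread between these libraries.

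Library totals were between 37221192 and 47626331 estimated counts, and levels are given as CPM, library-size-normalised counts after TMM scaling. Sums over cell type marker lists are the exception and are CPM without TMM scaling. Principal component 1, with 80% of the variance, separated the media. On component 2, with 6.85%, library 2 of WT cells in DIAM and library 2 of KO cells in DMEM stood apart from their groups. The X-inactivation RNA Xist was found at 102 to 326 CPM in all 16 libraries, against the label male. Levels of Y-linked genes are not reported here, and no conclusion on the sex of the cultures was drawn. Arg1 had 0 to 49 counts per library, which does not check the genotype labels because these cells were not the ones targeted. All 8 smooth muscle markers were detected in every library. Acta2, the smooth muscle actin, averaged 845 ± 227 CPM in KO DIAM libraries, 772 ± 167 in WT DIAM libraries, 1799 ± 541 in KO DMEM libraries and 1960 ± 247 in WT DMEM libraries (SD, n = 4 each).

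Promoter sequences of 26 of the 29 genes were found in RefSeq tables of build GRCm38.p6, which is not the build used for the expression values (GRCm39). Ncoa2, Thra and Ncoa3 had no entry. The 4 shown here belong to Rarb, the receptor gene known as a target of retinoic acid itself, and to the 3 NR4A genes, known as immediate early genes that cyclic AMP induces. They cover 250 bases upstream of the transcription start, on the strand of the gene. Capitals mark the motifs that were searched, on either strand. The Rarb stretch is chr14:16575477-16575726 (minus strand), that of Nr4a1 is chr15:101266596-101266845 (plus strand), that of Nr4a2 is chr2:57124004-57124253 (minus strand) and that of Nr4a3 is chr4:48045055-48045304 (plus strand).
Rarb: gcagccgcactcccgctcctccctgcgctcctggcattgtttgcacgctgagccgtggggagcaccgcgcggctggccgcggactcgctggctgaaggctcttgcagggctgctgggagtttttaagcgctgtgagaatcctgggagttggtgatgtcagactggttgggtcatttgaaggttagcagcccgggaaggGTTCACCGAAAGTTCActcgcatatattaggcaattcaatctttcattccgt
Nr4a1: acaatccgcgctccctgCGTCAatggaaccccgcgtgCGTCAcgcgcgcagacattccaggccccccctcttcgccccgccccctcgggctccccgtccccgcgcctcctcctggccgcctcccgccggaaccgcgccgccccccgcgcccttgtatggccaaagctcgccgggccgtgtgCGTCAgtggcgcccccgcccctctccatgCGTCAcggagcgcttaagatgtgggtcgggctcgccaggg
Nr4a2: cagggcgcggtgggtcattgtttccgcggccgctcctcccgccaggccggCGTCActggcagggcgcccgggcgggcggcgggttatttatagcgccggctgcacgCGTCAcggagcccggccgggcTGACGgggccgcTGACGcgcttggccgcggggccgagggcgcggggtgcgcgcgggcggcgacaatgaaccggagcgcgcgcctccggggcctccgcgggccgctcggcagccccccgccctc
Nr4a3: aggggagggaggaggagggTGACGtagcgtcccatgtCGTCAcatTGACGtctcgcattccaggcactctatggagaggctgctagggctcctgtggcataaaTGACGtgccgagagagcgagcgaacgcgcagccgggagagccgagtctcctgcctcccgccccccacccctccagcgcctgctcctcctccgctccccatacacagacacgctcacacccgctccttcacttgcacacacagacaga

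In Rarb the capitals mark a direct repeat, 2 copies of GTTCA with 6 bases between them, whose first base lay at position -52 from the start. It occurred in 25 of 32851 RefSeq promoters of 300 bases (0.0761%), and Rarb was the one gene of the 26 that held it. In the NR4A genes the capitals mark TGACG, the cyclic AMP response element half-site, or its reverse complement. All 3 NR4A promoters held 4 copies, a number that 76 of the 32851 promoters reached or passed (0.231%), while at least 1 copy was found in 20.8% of all promoters and in 13 of the 40 promoters of these genes (32.5%). Both motifs were chosen after the sequences were seen. The receptor half-site AGGTCA was found in 7 of the 40 promoters (17.5%), against 16.3% of all promoters. AAAGGTCA, the site that NR4A proteins bind as monomers and that contains AGGTCA, was in 2 of them (5%), against 1.51%. The full element TGACGTCA, which contains TGACG, was in 1 (2.5%), that of Nr6a1, against 1.79%, and the full palindromic glucocorticoid response element was in none, against 0.00913%. A motif match describes the letters of the sequence and is not a measured binding site.

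Levels differed widely between the genes. Divided by the length of their exons in kb, Rxra, the main partner receptor, was the highest, with 34.1 ± 1.18 CPM per kb in KO cells in DIAM, 28.4 ± 3.16 in WT DIAM, 21.6 ± 0.760 in KO DMEM and 22.2 ± 1.82 in WT DMEM. The next, Thra, stood at 19.8 ± 0.240 CPM per kb in KO DIAM, 16.8 ± 0.863 in WT DIAM, 21.2 ± 1.22 in KO DMEM and 21.7 ± 2.33 in WT DMEM. In DMEM these 2 genes did not differ beyond their spread, and in DIAM the libraries of Rxra were all above those of Thra. Rarb was the lowest, with 0.117 ± 0.0371 CPM per kb in KO DIAM, 0.166 ± 0.0608 in WT DIAM, 0.367 ± 0.0582 in KO DMEM and 0.297 ± 0.0453 in WT DMEM, which rests on 17 to 89 counts per library. Between these ends, Nr2f6, Rarg, Nr2f2 and Ncor1 followed Thra, and Nr6a1, Esr1, Ppara, Nr4a3, Nr4a2 and Pgr lay near the low end with ranges that overlapped. The exon lengths are those of an annotation of build GRCm38, so these levels place genes relative to each other only approximately.

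**Figure D1:**
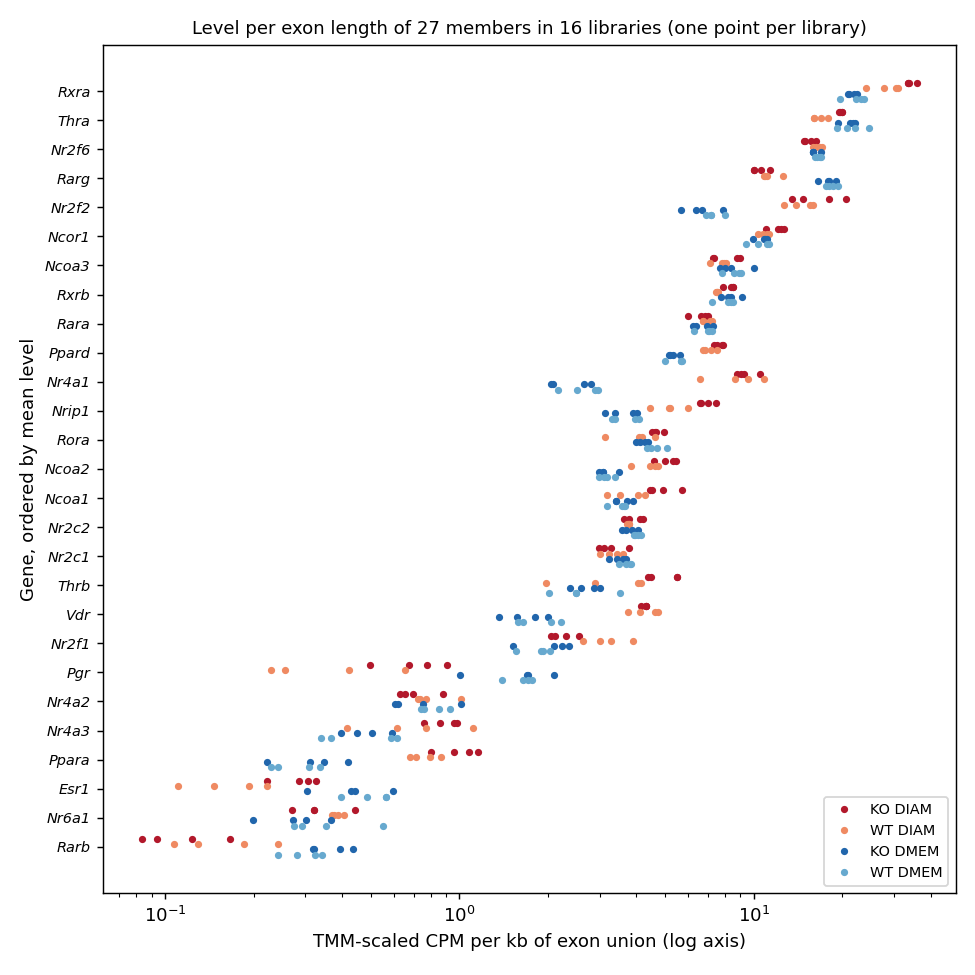
Level of each of the 27 genes in each of the 16 libraries, in TMM-scaled CPM per kb of exons on a log axis; each point is 1 library, coloured by group, and genes run from the highest mean level at the top to the lowest at the bottom. Rxra leads with 34.1 CPM per kb in KO cells in DIAM, Rarb is lowest, and the points of Nr4a1, Nr2f2, Vdr, Ppara and Pgr split by medium.

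The first comparison asked what the lipid-loading medium did to these genes. In KO cells 16 of the 27 changed at an adjusted p under 0.05, 12 of them higher in DIAM (background 29.8% of all genes tested) and 4 lower (background 30.8%). In WT cells 15 changed, 9 of them higher (background 27.6%) and 6 lower (background 27.5%). Shares of 59.3% in KO cells and 55.6% in WT cells stand beside 60.7% and 55.1% of all genes tested in the same cells, so that the genes changed about as often as genes in general. The libraries of the media did not overlap for 15 of the 27 in KO cells and 14 in WT cells, where the background was 55.1% and 49% of all genes. Median log2 fold changes were 0.16 in KO cells and 0.05 in WT cells, beside -0.02 and -0.01 over all genes. Across all genes the calls in KO cells were 4243 higher and 4380 lower, and with upper-quartile scaling 3403 higher and 5608 lower; for the 27 genes that scaling gave 11 higher and 6 lower in KO cells. In WT cells the 9 higher and 6 lower of the 27 became 9 higher and 9 lower with upper-quartile or quantile scaling.

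Across genotypes, 8 of the genes were higher in DIAM in both and 4 were lower in both. None changed in opposite directions, 4 passed the test in KO cells and not in WT cells, 3 in WT cells and not in KO cells, and 8 in neither. Over all 14217 genes tested, 3320 were higher in both genotypes, 3281 lower in both, 7 opposite, 2015 passed in KO cells and not in WT cells, 1231 in WT cells and not in KO cells, and 4363 in neither. The genotype by medium interaction, which tests whether the response itself differed, was passed by 0 of the 27 genes and by 0 of the 14217 in edgeR (background 0%). At an unadjusted p under 0.05 it counted 9 of the 27 and 2255 of all genes, and over all genes DESeq2 called 225.

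Values from whole cultures cannot tell apart fewer cells of a type and less RNA per cell. The 5 measured adipocyte markers of 7 listed summed to 1890 to 2861 CPM in KO cells in DIAM and 1305 to 2038 CPM in WT cells in DIAM, against 57.3 to 100 CPM in KO cells in DMEM and 73.8 to 89.5 CPM in WT cells in DMEM. All 5 were higher in DIAM in both genotypes, and none was at 0 in any library. The 8 smooth muscle markers summed to 1112 to 2041 CPM in KO cells in DIAM and 1028 to 1681 CPM in WT cells in DIAM, against 2393 to 4030 CPM in KO cells in DMEM and 2989 to 3801 CPM in WT cells in DMEM. With DIAM, 2 were higher, 4 were lower and 2 did not pass in KO cells. In WT cells 1 was higher, 4 were lower and 3 did not pass. Over all genes 60.7% changed in KO cells and 55.1% in WT cells. The 8 Schwann or glial markers summed to 47.7 to 189 CPM in KO DIAM and 292 to 711 CPM in WT DIAM, against 29.2 to 132 CPM in KO DMEM and 29.9 to 91.3 CPM in WT DMEM. Of these 8 markers 7 were tested. With DIAM, 2 were higher, 1 was lower and 4 did not pass in KO cells, while 6 were higher and 1 was lower in WT cells. Their median log2 fold changes were 1.30 in KO cells and 3.33 in WT cells. The 8 fibroblast markers summed to 3886 to 5560 CPM in KO DIAM and 5715 to 8644 CPM in WT DIAM, against 8175 to 12479 CPM in KO DMEM and 9944 to 11069 CPM in WT DMEM. All 8 passed in both genotypes, 6 of them higher in DIAM and 2, Col1a1 and Lum, lower. Col1a1, a collagen chain, averaged 2309 CPM in KO DIAM and 4466 CPM in WT DIAM, against 8982 CPM in KO DMEM and 9272 CPM in WT DMEM. The 8 endothelial markers summed to 79.4 to 128 CPM in KO DIAM and 90.6 to 129 CPM in WT DIAM, against 48.8 to 71.5 CPM in KO DMEM and 45.4 to 66.5 CPM in WT DMEM, with 5 higher and 2 lower in DIAM in KO cells and 4 higher and 1 lower in WT cells. The 6 measured leukocyte markers of 8 listed summed to 1016 to 1315 CPM in KO DIAM and 790 to 1373 CPM in WT DIAM. In DMEM they summed to 1052 to 2335 CPM in KO and 780 to 1735 CPM in WT cells. With DIAM, 3 were lower in KO cells and 1 was higher in WT cells. The 6 mesothelial markers summed to 197 to 654 CPM in KO DIAM and 117 to 312 CPM in WT DIAM. In DMEM their sums were 63.4 to 354 CPM in KO and 86.7 to 174 CPM in WT cells. Of them 2 rose in each genotype. The part of these markers in the responses to DIAM was not tested.

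**Figure D2:**
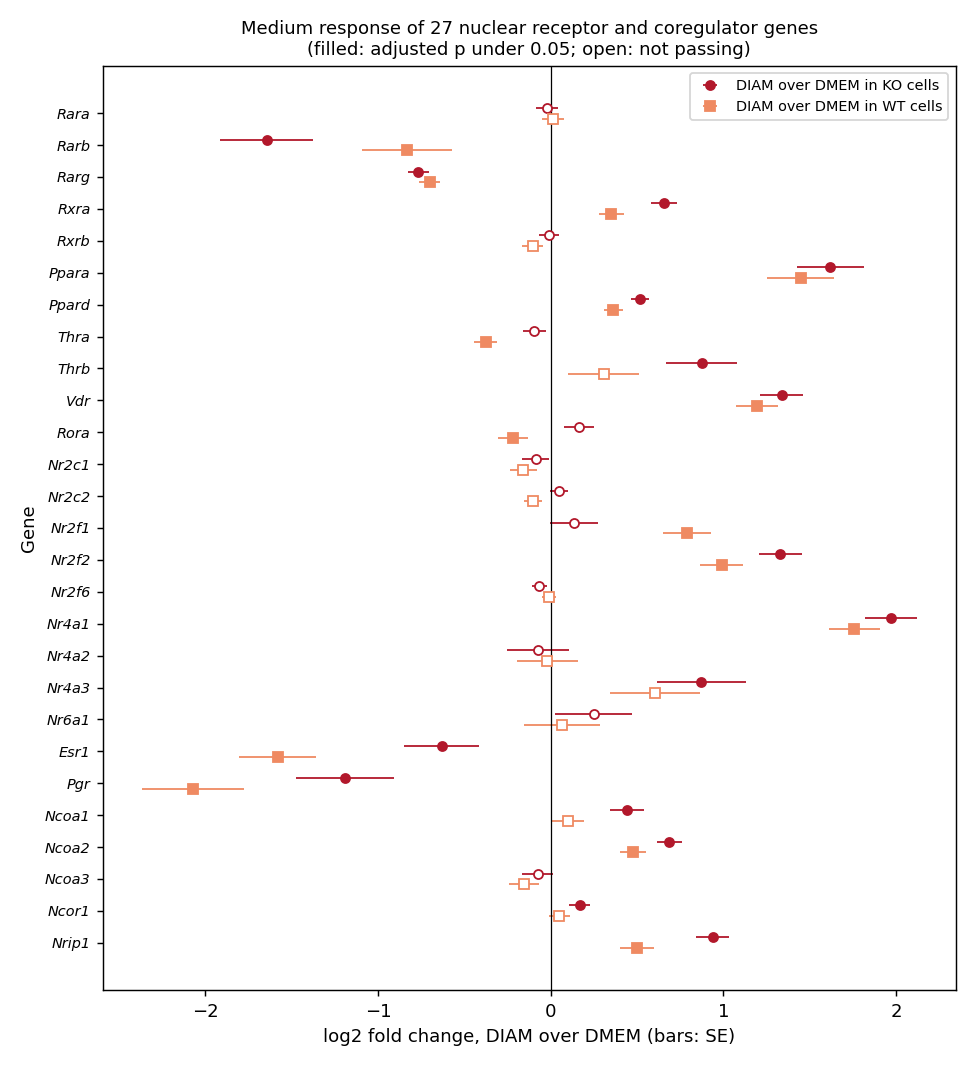
Log2 fold change of DIAM over DMEM for each of the 27 genes, in KO cells (circles) above WT cells (squares), with bars for the SE and filled symbols for an adjusted p under 0.05. Nr4a1, Ppara, Vdr and Nr2f2 lie farthest to the right in both genotypes, while Pgr and Esr1 lie farthest to the left in WT cells and Rarb and Pgr in KO cells.

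Of the 3 receptors for retinoic acid, Rarb and Rarg were lower in DIAM and Rara was flat. Rarb (ENSMUSG00000017491) had 0.440, 0.875, 0.493 and 0.650 CPM in KO libraries 1 to 4 in DIAM, against 2.07, 2.30, 1.68 and 1.68 CPM in KO libraries in DMEM. In WT cells it had 0.684, 1.28, 0.975 and 0.563 CPM in DIAM, against 1.81, 1.70, 1.27 and 1.48 CPM in DMEM. All KO libraries in DIAM were below all KO libraries in DMEM, while in WT cells the highest DIAM library just reached the lowest DMEM one. On the log2 scale Rarb fell by 1.64 ± 0.27 (SE) in KO cells (adjusted p = 6.46e-05) and by 0.83 ± 0.26 in WT cells (adjusted p = 0.0131). The interaction had an adjusted p of 0.304. Rarg, the receptor best known from skin and cartilage, averaged 44.8 ± 2.78 CPM in KO cells in DIAM, against 76.3 ± 4.31 in KO cells in DMEM, and 48.3 ± 3.50 in WT cells in DIAM, against 78.6 ± 3.29 in WT cells in DMEM. The media did not overlap in either genotype, and the falls were 1.70-fold in KO cells and 1.63-fold in WT cells (adjusted p = 2.16e-08 and 7.58e-08). Rara, the broadly expressed member, stood at 28.9, 30.3, 29.3 and 30.0 CPM in KO DIAM, WT DIAM, KO DMEM and WT DMEM, and its adjusted p was 0.788 in KO cells and 0.867 in WT cells.

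Known retinoic acid target genes did not move one way. Genes named here and in the lists that follow passed in both genotypes. Of 14 listed, 10 were tested. In KO cells 2 were higher and 4 lower in DIAM (60% changed, background 60.7% of all genes tested). In WT cells 3 were higher and 5 lower (80% changed, background 55.1%). Nedd9, an adaptor protein of focal adhesions, had 67 CPM in KO cells in DIAM, against 198 in KO cells in DMEM, and 66.6 CPM in WT cells in DIAM, against 208 in WT cells in DMEM. Dhrs3, which reduces retinal back to retinol, fell by 0.83 ± 0.08 in KO cells and 0.95 ± 0.08 in WT cells on the log2 scale. Tgm2, a transglutaminase, was 1.15 ± 0.15 higher in KO cells and 1.16 ± 0.15 higher in WT cells.

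Rxra, the partner receptor of most of the others, was 1.58-fold higher in DIAM in KO cells and 1.28-fold higher in WT cells (adjusted p = 1.08e-06 and 0.000684); its values are given with the comparison of genotypes. Rxrb, the second partner receptor, averaged 33.1, 29.8, 33.3 and 32.1 CPM in KO DIAM, WT DIAM, KO DMEM and WT DMEM and did not pass in either genotype (adjusted p = 0.919 in KO and 0.152 in WT cells).

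Both fatty acid receptors rose. Ppara (ENSMUSG00000022383), the receptor that drives fatty acid oxidation in liver and heart, had 4.14, 3.69, 4.44 and 3.07 CPM in KO libraries in DIAM, against 1.34, 1.60, 0.855 and 1.20 CPM in KO libraries in DMEM. In WT cells the values were 2.6, 2.72, 3.05 and 3.32 CPM in DIAM, against 0.880, 0.930, 1.19 and 1.29 CPM in DMEM. Every DIAM library lay above every DMEM library of its genotype. The increase was 3.07-fold in KO cells (log2 1.62 ± 0.20, adjusted p = 2.6e-06) and 2.73-fold in WT cells (log2 1.45 ± 0.20, adjusted p = 1.23e-05). Ppard, the more widely expressed relative, was 1.43-fold higher in KO cells and 1.29-fold higher in WT cells, with 57.4 ± 1.99 CPM in KO cells in DIAM, against 40.1 ± 1.65 in KO cells in DMEM, and 53.2 ± 2.72 in WT cells in DIAM, against 41.4 ± 2.58 in WT cells in DMEM. Adjusted p-values were 5.15e-07 in KO cells and 3.17e-05 in WT cells.

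Of 18 listed PPAR alpha and delta target genes 16 were tested. In each genotype 13 were higher in DIAM and 1, Fabp3, was lower. That was 87.5% changed, beside 60.7% of all genes in KO cells and 55.1% in WT cells. Median log2 fold changes of the list were 1.21 in KO cells and 0.88 in WT cells, beside -0.02 and -0.01 over all genes. Pdk4, the kinase that holds back glucose oxidation, reached 281 ± 9.8 CPM in KO cells in DIAM, against 21.1 ± 3.6 in KO DMEM libraries. In WT cells it had 285 ± 21 CPM in DIAM, against 21.6 ± 1.0 CPM in DMEM. Acadm, which starts the oxidation of medium-chain fatty acids, was 2.11 ± 0.10 higher in KO cells and 1.44 ± 0.10 higher in WT cells on the log2 scale, and Acaa2, which performs the last step of the oxidation cycle, was 2.10 ± 0.09 higher in KO cells and 1.73 ± 0.09 higher in WT cells. Several of these genes also respond to glucocorticoids or to Pparg, the adipocyte receptor, which had 75.8 ± 10 CPM in KO cells in DIAM, against 13.3 ± 2.1 in KO cells in DMEM, and 53.0 ± 13 CPM in WT cells in DIAM, against 14.5 ± 2.4 in WT cells in DMEM. The part of either in the rise of the listed genes was not tested.

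The thyroid hormone receptors did not move together. Thrb, the receptor of liver and pituitary feedback, averaged 36.8 ± 4.54 CPM in KO cells in DIAM, against 20.1 ± 2.08 in KO cells in DMEM, a 1.83-fold rise (adjusted p = 0.00174). In WT cells it averaged 24.1 ± 7.61 CPM in DIAM, against 19.5 ± 4.72 in DMEM (log2 0.31 ± 0.20, adjusted p = 0.218). WT DIAM libraries ran from 14.6 CPM in library 2 to 30.6 CPM in library 4, and without library 2 the WT difference was 0.49 and passed (adjusted p = 0.0225). Thrb passed in WT cells in 2 of 18 alternatives, with adjusted p-values up to 0.522. Thra, the receptor of heart and brain, was 1.30-fold lower in DIAM in WT cells (adjusted p = 0.000175) and did not pass in KO cells (log2 -0.09 ± 0.07, adjusted p = 0.233). Thra overlaps the clock receptor gene Nr1d1 on the opposite strand, and with an unstranded kit their shared reads cannot be told apart. Nr1d1 averaged 43.0, 38.7, 44.4 and 46.5 CPM in KO DIAM, WT DIAM, KO DMEM and WT DMEM.

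Of 13 listed genes for handling thyroid hormone or responding to it, 11 were tested. In KO cells 6 were higher and 3 lower (81.8% changed, background 60.7%). In WT cells 7 were higher and 4 lower (100% changed, background 55.1%). Thrsp, a promoter of lipogenesis known as a thyroid hormone target in liver, had 382 ± 84 CPM in KO cells in DIAM, against 0.460 ± 0.32 in KO cells in DMEM, and 175 ± 74 CPM in WT cells in DIAM, against 0.373 ± 0.12 in WT cells in DMEM. Klf9, a transcription factor that glucocorticoids also induce, had 324 ± 12 CPM in KO cells in DIAM, against 108 ± 5.4 in KO cells in DMEM, and 298 ± 26 CPM in WT cells in DIAM, against 109 ± 10 in WT cells in DMEM. Dio2, which activates the hormone, fell by 1.92 ± 0.20 in KO cells and by 2.18 ± 0.21 in WT cells on the log2 scale.

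The vitamin D receptor gene Vdr (ENSMUSG00000022479) had 23.4, 24.3, 24.3 and 24.4 CPM in KO libraries in DIAM, against 10.2, 8.87, 7.74 and 11.3 CPM in KO libraries in DMEM. In WT cells it had 26.1, 21.1, 26.7 and 23.2 CPM in DIAM, against 11.6, 8.96, 12.5 and 9.33 CPM in DMEM. DIAM libraries were all above DMEM libraries, and the genotypes overlapped within each medium. The rise was 2.53-fold in KO cells and 2.29-fold in WT cells (adjusted p = 1.17e-07 and 5.07e-07). Of 12 listed genes of vitamin D handling and response 7 were tested, with 3 higher and 3 lower in KO cells, and 4 higher and 2 lower in WT cells. That was 85.7% changed in each genotype, beside a background of 60.7% in KO cells and 55.1% in WT cells. Cyp2r1, a vitamin D 25-hydroxylase, was 1.09 ± 0.13 higher in KO cells and 0.97 ± 0.13 higher in WT cells on the log2 scale. Tnfsf11, the osteoclast factor RANKL, had 0.545 ± 0.32 CPM in KO cells in DIAM, against 10.7 ± 4.3 in KO cells in DMEM, and 1.27 ± 0.74 CPM in WT cells in DIAM, against 8.96 ± 2.0 in WT cells in DMEM. Lrp5, a Wnt co-receptor, fell by 0.55 ± 0.10 in KO cells and by 0.97 ± 0.10 in WT cells.

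Orphan receptors of the NR2 family differed among themselves. Nr2f2 (ENSMUSG00000030551), the COUP-TFII protein that sets venous identity in endothelium, had 127, 156, 178 and 116 CPM in KO libraries in DIAM, against 55.2, 57.5, 67.7 and 49.0 CPM in KO libraries in DMEM. WT libraries had 109, 121, 137 and 134 CPM in DIAM, against 61.8, 59.4, 69.0 and 62.0 CPM in DMEM. All DIAM libraries were above all DMEM libraries. The rise was 2.51-fold in KO cells and 1.99-fold in WT cells (adjusted p = 1.86e-07 and 5.83e-06). Its close relative Nr2f1 was 1.73-fold higher in DIAM in WT cells (adjusted p = 0.000164) and did not pass in KO cells (log2 0.13 ± 0.14, adjusted p = 0.421). Nr2f6, another relative, averaged 46.2, 49.3, 48.3 and 49.6 CPM in KO DIAM, WT DIAM, KO DMEM and WT DMEM. Neither Nr2f6 nor the testicular receptors Nr2c1 and Nr2c2 passed in either genotype, with adjusted p-values between 0.0971 and 0.874. Rora, a receptor that binds sterols, averaged 61.3 ± 2.57 CPM in KO cells in DIAM, against 54.7 ± 2.29 in KO cells in DMEM (adjusted p = 0.120), and 52.3 ± 8.23 CPM in WT cells in DIAM, against 60.8 ± 4.10 in WT cells in DMEM (log2 -0.22 ± 0.09, adjusted p = 0.0475). That WT call was lost in 11 of 18 alternatives, among them the absence of either library 1, 2 or 4 of WT cells in DIAM.

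**Figure D3:**
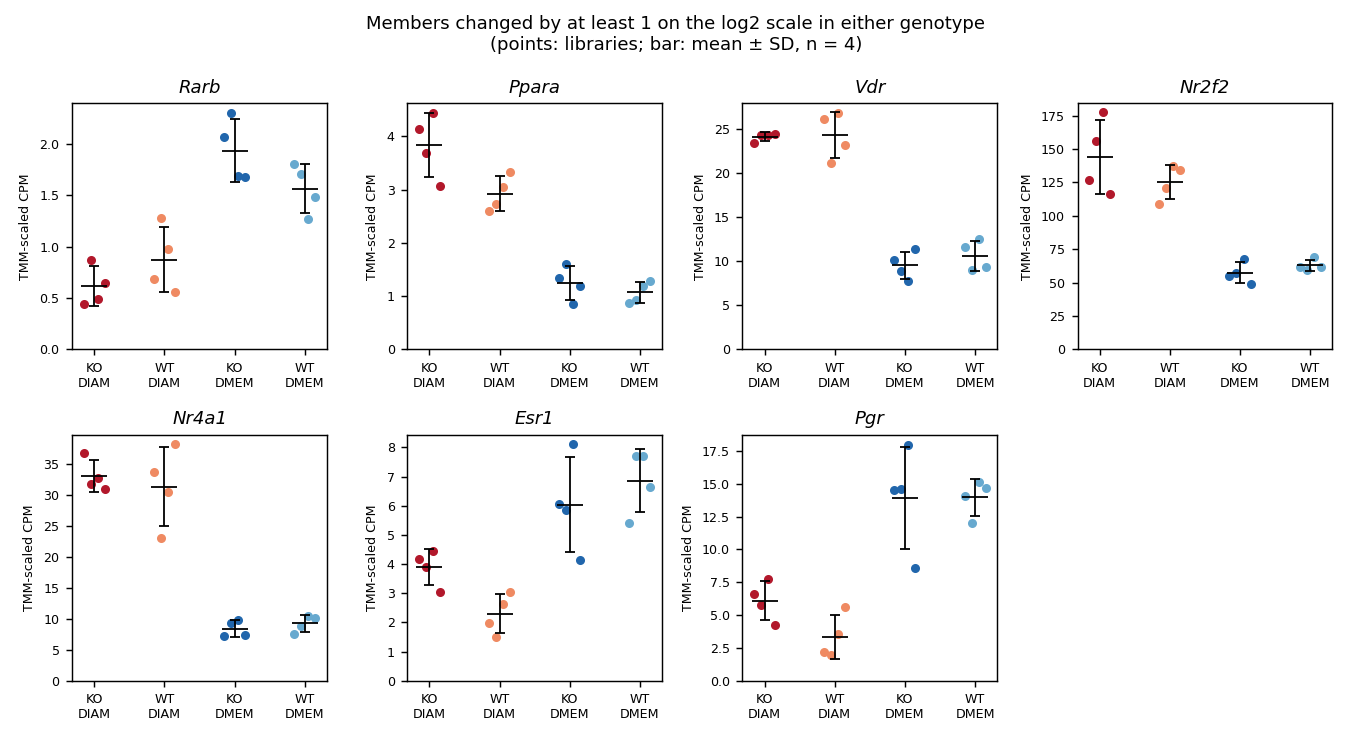
TMM-scaled CPM of the 7 genes whose called response to DIAM reached 1 on the log2 scale in either genotype, in KO DIAM, WT DIAM, KO DMEM and WT DMEM; points are libraries and bars the mean ± SD (n = 4). Ppara, Vdr, Nr2f2 and Nr4a1 are higher in DIAM without overlap, and Rarb, Esr1 and Pgr are lower, with overlap in WT cells for Rarb and in KO cells for Esr1.

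Nr4a1 had the largest rise of the 27 genes in both genotypes. This gene (ENSMUSG00000023034), whose product Nur77 restrains smooth muscle proliferation in mice, had 36.8, 31.7, 32.7 and 30.9 CPM in KO libraries in DIAM, against 7.20, 9.28, 9.87 and 7.33 CPM in KO libraries in DMEM. In WT cells it had 33.7, 23.0, 30.4 and 38.1 CPM in DIAM, against 7.59, 8.81, 10.4 and 10.2 CPM in DMEM. The lowest DIAM library was far above the highest DMEM library, and the genotypes overlapped in each medium. The increase was 3.92-fold in KO cells (log2 1.97 ± 0.15, adjusted p = 1.33e-08) and 3.39-fold in WT cells (log2 1.76 ± 0.15, adjusted p = 5.53e-08). Nr4a3, its relative NOR-1, averaged 5.32 ± 0.604 CPM in KO cells in DIAM, against 2.90 ± 0.495 in KO cells in DMEM, a 1.83-fold rise (adjusted p = 0.00839). In WT cells Nr4a3 averaged 4.36 ± 1.77 CPM in DIAM, against 2.86 ± 0.862 in DMEM (log2 0.61 ± 0.26, adjusted p = 0.0588), and without WT DIAM library 2 this difference was 0.81 (adjusted p = 0.00857). Nr4a3 passed in WT cells in 6 of 18 alternatives, with adjusted p-values up to 0.275. Nr4a2, or Nurr1, known from dopamine neurons, averaged 2.89, 3.29, 3.04 and 3.33 CPM in KO DIAM, WT DIAM, KO DMEM and WT DMEM and did not pass in either genotype (adjusted p = 0.749 in KO and 0.941 in WT cells). Each of the 3 promoters printed above holds 4 TGACG half-sites.

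Other immediate early and cyclic AMP responsive genes were listed for comparison. All 14 were tested. In KO cells 10 were higher and 1 lower in DIAM (78.6% changed, background 60.7%). In WT cells 9 were higher and 1 lower (71.4% changed, background 55.1%). Median log2 fold changes of the list were 0.95 in KO cells and 1.01 in WT cells, beside -0.02 and -0.01 over all genes. Per1, a clock gene that glucocorticoids also induce, had 91.2 ± 5.4 CPM in KO cells in DIAM, against 21.7 ± 2.6 in KO cells in DMEM, and 79.8 ± 11 CPM in WT cells in DIAM, against 21.3 ± 2.0 in WT cells in DMEM. Sik1, a kinase that damps cyclic AMP signalling, was 1.72 ± 0.12 higher in KO cells and 1.56 ± 0.12 higher in WT cells on the log2 scale. Pde4b, a phosphodiesterase that breaks down cyclic AMP, fell by 1.35 ± 0.12 in KO cells and by 1.52 ± 0.12 in WT cells. Nr6a1, the germ cell nuclear factor, averaged 3.67, 4.16, 3.09 and 3.98 CPM in KO DIAM, WT DIAM, KO DMEM and WT DMEM and did not pass (adjusted p = 0.351 in KO and 0.824 in WT cells).

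Both sex steroid receptors were lower in DIAM. Pgr (ENSMUSG00000031870), the progesterone receptor and itself a classical estrogen target, had 6.62, 5.76, 7.78 and 4.26 CPM in KO libraries in DIAM, against 14.6, 14.6, 17.9 and 8.60 CPM in KO libraries in DMEM. WT libraries had 2.19, 1.97, 3.59 and 5.60 CPM in DIAM, against 14.1, 12, 15.2 and 14.7 CPM in DMEM. Media did not overlap in either genotype, with KO library 4 the lowest of its group in both media. Pgr was 2.28-fold lower in KO cells (adjusted p = 0.00206) and 4.20-fold lower in WT cells (adjusted p = 2.74e-05).

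Esr1 (ENSMUSG00000019768), the estrogen receptor alpha, had 4.19, 3.89, 4.46 and 3.04 CPM in KO libraries in DIAM, against 6.05, 5.84, 8.11 and 4.14 CPM in KO libraries in DMEM. WT libraries had 2, 1.52, 2.64 and 3.03 CPM in DIAM, against 5.42, 7.70, 7.70 and 6.63 CPM in DMEM. The media were apart in WT cells and overlapped in KO cells, where library 4 in DMEM lay within the DIAM range. On the log2 scale Esr1 fell by 0.63 ± 0.22 in KO cells (adjusted p = 0.0201) and by 1.58 ± 0.23 in WT cells (adjusted p = 2.02e-05). The KO call was lost without DIAM library 4 (-0.53, adjusted p = 0.0639) and without DMEM library 3 (-0.46, adjusted p = 0.0870). The interaction did not pass for Esr1 (adjusted p = 0.196) or Pgr (adjusted p = 0.307). Of 12 listed estrogen and progesterone target genes 9 were tested, and 4 were higher and 3 lower in each genotype. That was 77.8% changed, beside a background of 60.7% in KO cells and 55.1% in WT cells. Ccnd1, or cyclin D1, was 0.58 ± 0.11 higher in KO cells and 1.03 ± 0.11 higher in WT cells on the log2 scale. Xbp1, a factor of the unfolded protein response, was 0.53 ± 0.05 higher in KO cells and 0.52 ± 0.05 higher in WT cells. Pgrmc2, a membrane heme chaperone, fell by 0.30 ± 0.06 in KO cells and 0.48 ± 0.06 in WT cells.

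Among the coregulators, 4 of 5 were higher in DIAM in KO cells (background 29.8%) and 2 of 5 in WT cells (background 27.6%), and none was lower (background 30.8% in KO and 27.5% in WT cells). Ncoa2, the p160 coactivator TIF2, averaged 79.7 ± 6.13 CPM in KO cells in DIAM, against 49.5 ± 3.49 in KO cells in DMEM, and 68.9 ± 6.26 CPM in WT cells in DIAM, against 49.5 ± 2.51 in WT cells in DMEM. That was 1.61-fold in KO cells and 1.39-fold in WT cells (adjusted p = 6.68e-07 and 4.27e-05). Ncoa1, the coactivator SRC-1, was 1.36-fold higher in KO cells (adjusted p = 0.000880) and did not pass in WT cells (log2 0.10 ± 0.10, adjusted p = 0.407). Ncoa3, another p160 coactivator, averaged 63.9, 61.0, 67.3 and 67.9 CPM in KO DIAM, WT DIAM, KO DMEM and WT DMEM and did not pass in either. Nrip1, or RIP140, a ligand-dependent corepressor that restrains energy expenditure in fat, was 1.92-fold higher in KO cells and 1.41-fold higher in WT cells (adjusted p = 5.04e-07 and 0.000402). Ncor1, the nuclear receptor corepressor, averaged 154 ± 9.06 CPM in KO cells in DIAM, against 137 ± 6.30 in KO cells in DMEM (log2 0.17 ± 0.06, adjusted p = 0.0234). In WT cells it averaged 139 ± 5.44 CPM in DIAM, against 135 ± 10.7 in DMEM (adjusted p = 0.508). The KO call of Ncor1 was lost without library 3 or 4 in DIAM or library 3 in DMEM (log2 0.14 to 0.16), and with upper-quartile (log2 0.07, adjusted p = 0.317) and quantile scaling (log2 0.06, adjusted p = 0.386), or 5 of 17 alternatives.

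Genes of the same families outside the chosen ones moved as follows. Of 24 further receptors 11 were tested. In KO cells 7 were higher and 2 lower (81.8% changed, background 60.7%). In WT cells 5 were higher and 3 lower (72.7% changed, background 55.1%). Nr1h3, the oxysterol receptor LXR alpha, had 31.4 ± 2.7 CPM in KO cells in DIAM, against 7.13 ± 0.84 in KO cells in DMEM, and 29.3 ± 1.5 CPM in WT cells in DIAM, against 6.97 ± 0.55 in WT cells in DMEM. Nr1d2, a clock repressor, fell by 0.92 ± 0.06 in KO cells and by 0.82 ± 0.06 in WT cells on the log2 scale. All 27 further coregulators were tested. In KO cells 14 were higher and 4 lower (66.7% changed, background 60.7%). In WT cells 13 were higher and 4 lower (63% changed, background 55.1%). Zbtb16, or PLZF, a repressor known as a glucocorticoid-induced gene, had 129 ± 3.4 CPM in KO cells in DIAM, against 0.191 ± 0.15 in KO cells in DMEM, and 105 ± 14 CPM in WT cells in DIAM, against 0.17 ± 0.072 in WT cells in DMEM. Trim24, a cofactor of retinoic acid receptors, was 0.45 ± 0.04 higher in KO cells and 0.47 ± 0.04 higher in WT cells, while Prmt1, an arginine methyltransferase, fell by 0.68 ± 0.06 in KO cells and 0.54 ± 0.06 in WT cells.

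The second comparison asked whether cells from KO and WT mice differed within a medium. In DMEM 0 of the 27 genes passed in edgeR, 0 reached an unadjusted p under 0.05 and none was without overlap. Over all genes 0 of 14217 passed (background 0%), 438 reached an unadjusted p under 0.05, DESeq2 called 1, and 1.6% were without overlap. Among the 27, the log2 fold change farthest from 0 was that of Nr6a1, -0.37 ± 0.22.

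In DIAM 6 of the 27 genes passed, or 22.2%, beside 8.38% of all genes tested. Rxra, Thra, Esr1, Ncoa1 and Nrip1 were higher in KO cells (background 3.43%) and Nr2f1 was lower (background 4.95%). The groups did not overlap for these 6 and for Rxrb and Thrb, which did not pass (adjusted p = 0.125 and 0.0746), beside 16.4% of all genes. All 6 calls were close to the threshold, with adjusted p-values between 0.0219 and 0.0488, and their number changed with the libraries and settings used. Fitted on the DIAM libraries alone, 0 of the 27 and 0 of 14217 genes passed. Leaving out library 1 or 2 of KO cells in DIAM, or library 1 or 2 of WT cells in DIAM, also left 0 of the 27, without KO library 3 it was 3, without KO library 4 it was 4, without WT library 3 it was 7 and without WT library 4 it was 8. With both libraries that stood apart left out, 0 of the 27 and 362 of all genes passed. DESeq2 called 9 of the 27 and 1873 of all genes, and the authors' deposited table held 7 and 1810. Without 1 library the count over all genes also moved, from 178 to 1480.

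The signs held in all 18 alternatives for each of the 6 genes. As the groups did not overlap for any of them, leaving out libraries could hardly turn a sign. Schwann or glial markers, which were higher in WT than in KO cells in DIAM in the sums above, were highest in WT library 2 (711 CPM) and 1 (472 CPM). Of the 7 Schwann markers tested 0 passed between KO and WT cells in DIAM in edgeR, with 5 at an unadjusted p under 0.05 and a median log2 fold change of -1.92. Over all genes tested, 3652 of 14217 were at an unadjusted p under 0.05 in this comparison. Of the 8 fibroblast markers, whose sums are given above, 1 was lower in KO cells (Col1a1, with 2309 ± 696 CPM in KO and 4466 ± 1065 CPM in WT cells, adjusted p = 0.0150) and 7 did not pass, with a median of -0.10. Of the 5 adipocyte markers 1 was higher and 4 did not pass, with a median of 0.61. All 5 adipocyte markers were at an unadjusted p under 0.05, as were 3 of the 8 fibroblast markers. The genotypes did not overlap for 3 adipocyte, 5 Schwann and 2 fibroblast markers, beside 16.4% of all genes. None of the measured fibroblast, adipocyte or Schwann markers was at 0 in any library. The part of these markers in the genotype differences was not tested.

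**Figure D4:**
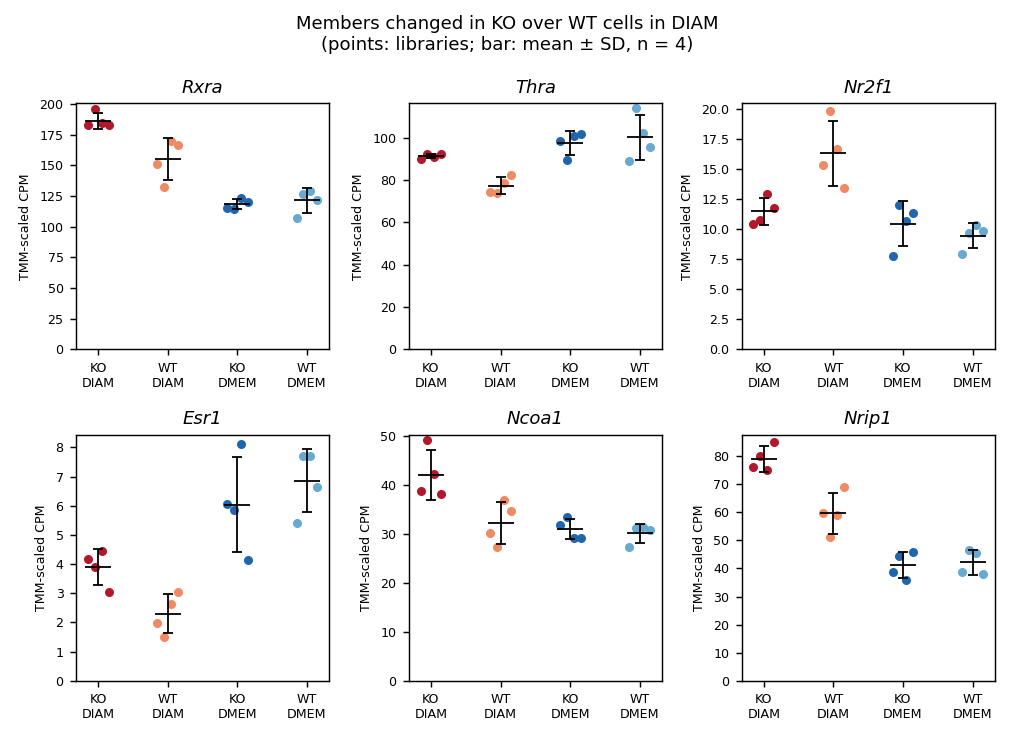
TMM-scaled CPM of the 6 genes that passed between KO and WT cells in DIAM, in KO DIAM, WT DIAM, KO DMEM and WT DMEM; points are libraries and bars the mean ± SD (n = 4). In DIAM the KO libraries of Rxra, Thra, Esr1, Ncoa1 and Nrip1 are above the WT ones and those of Nr2f1 below, by a narrow gap for Esr1, and in DMEM the genotypes overlap in all 6.

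Nrip1 (ENSMUSG00000048490) had 76.0, 80.1, 75.1 and 85.2 CPM in KO libraries in DIAM, against 59.6, 51.1, 59.0 and 68.9 CPM in WT libraries in DIAM. In DMEM it had 38.7, 44.5, 36.0 and 46.0 CPM in KO libraries, against 38.8, 46.6, 45.4 and 38.0 CPM in WT libraries. The genotypes were apart in DIAM and overlapped in DMEM. In DIAM the difference was 1.33-fold (log2 0.41 ± 0.10, adjusted p = 0.0219), with adjusted p-values from 0.00138 to 0.0693 over the alternatives, and the interaction was 0.44 ± 0.14 (adjusted p = 0.185).

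Ncoa1 (ENSMUSG00000020647) had 38.6, 49.1, 42.1 and 38.0 CPM in KO libraries in DIAM, against 30.1, 27.3, 36.8 and 34.6 CPM in WT libraries in DIAM. In DMEM the values were 31.8, 33.3, 29.2 and 29.2 CPM in KO libraries, against 27.2, 31.1, 31.3 and 30.7 CPM in WT libraries. The KO libraries in DIAM stood above all others, and the ranges of the other 3 groups overlapped. The difference in DIAM was 1.30-fold (log2 0.38 ± 0.10, adjusted p = 0.0277, 0.00477 to 0.0997 over the alternatives), and the interaction had an adjusted p of 0.251.

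Rxra (ENSMUSG00000015846) had 183, 196, 184 and 183 CPM in KO libraries in DIAM, against 151, 132, 170 and 166 CPM in WT libraries in DIAM. In DMEM it had 115, 114, 123 and 120 CPM in KO libraries, against 107, 127, 129 and 122 CPM in WT libraries. Library 2 was the lowest of the WT libraries in DIAM and the highest of the KO ones. The difference in DIAM was 1.20-fold (log2 0.27 ± 0.07, adjusted p = 0.0367, 0.00927 to 0.112 over the alternatives), and the interaction had an adjusted p of 0.204.

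Thra (ENSMUSG00000058756) had 90.1, 92.4, 91.0 and 92.2 CPM in KO libraries in DIAM, against 74.3, 74.0, 78.4 and 82.4 CPM in WT libraries in DIAM. In DMEM it had 98.3, 89.5, 101 and 102 CPM in KO libraries, against 88.9, 114, 102 and 95.7 CPM in WT libraries. WT cells in DIAM were the low group, below every library of the other groups. The difference in DIAM was 1.18-fold (log2 0.24 ± 0.07, adjusted p = 0.0373, 0.000677 to 0.104 over the alternatives), and the interaction had an adjusted p of 0.203.

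Nr2f1 (ENSMUSG00000069171) was the one gene lower in KO cells. It had 10.5, 10.8, 13.0 and 11.8 CPM in KO libraries in DIAM, against 15.3, 19.9, 16.7 and 13.5 CPM in WT libraries in DIAM. In DMEM it had 7.75, 12, 10.7 and 11.4 CPM in KO libraries, against 7.94, 9.69, 10.3 and 9.82 CPM in WT libraries. WT cells in DIAM were the high group, led by library 2. KO DMEM libraries overlapped both KO DIAM and WT DMEM, while KO DIAM lay just above WT DMEM. In DIAM Nr2f1 was lower in KO than in WT cells by 0.51 ± 0.14 on the log2 scale (adjusted p = 0.0365, 0.00573 to 0.140 over the alternatives). The interaction had an adjusted p of 0.181.

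Esr1 was 1.70-fold higher in KO than in WT cells in DIAM with the values given above (log2 0.76 ± 0.23, adjusted p = 0.0488, 0.0148 to 0.164 over the alternatives), and the lowest KO library was only just above the highest WT one. Pgr, at 6.11 ± 1.48 CPM in KO cells and 3.34 ± 1.67 CPM in WT cells in DIAM, did not pass (log2 0.87 ± 0.30, adjusted p = 0.0806). Without WT library 4 the difference was 1.24 and passed (adjusted p = 0.0135). Pgr passed in 2 of 18 alternatives, with log2 differences down to 0.69 and adjusted p-values up to 0.249.

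In the lists of further genes, 7 PPAR target genes were higher in KO than in WT cells in DIAM (background 3.43%) and 1 was lower (background 4.95%), out of 16 tested. The list counts moved with the libraries used: without 1 library, 2 to 9 of the PPAR list changed (2 without KO library 1 or 2, and 3 without WT library 1 or 2) and 0 to 4 of the thyroid hormone list (0 without KO library 2, and 1 without KO or WT library 1). With the DIAM libraries alone, or with the replicate number as a block, edgeR called 0 of either list, where with all libraries 11 and 5 were at an unadjusted p under 0.05, and without both libraries that stood apart it called 3 of each. Acadm had 180 ± 20 CPM in KO cells and 128 ± 19 CPM in WT cells in DIAM (log2 0.49 ± 0.10, adjusted p = 0.0120), and Acaa2 had 92.3 ± 8.3 CPM in KO cells and 70.1 ± 7.5 CPM in WT cells (adjusted p = 0.0175). Of the thyroid hormone list 3 of 11 were higher, Thrsp by 1.12 ± 0.29 on the log2 scale (adjusted p = 0.0344). In each of the lists of further receptors and of vitamin D genes 1 was higher. In each of the lists of retinoic acid, estrogen and progesterone, and immediate early genes 1 was lower. Among the 27 further coregulators 0 passed in edgeR, with 11 at an unadjusted p under 0.05. Over all genes tested, 3652 of 14217 reached that unadjusted level between KO and WT cells in DIAM.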

How the data were processed

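Total RNA of 16 libraries was sequenced. FastQC, Salmon (1.9.0), DESeq2 (1.46.0), R (4.4.2) and build GRCm39 are named in the submitters' processing notes. The labels call the deposited values TPM, but each column sums to 37221192 to 47626331, so they were taken as deposited estimated counts and rounded. The authors' deposited table also holds their base mean signal, log2 fold changes and adjusted p-values, used as an alternative, and no such values for the KO medium response were used.

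Genes with at least 1 CPM in at least 4 of 16 libraries (14217 of 20581) entered a single model of 4 groups with 12 residual degrees of freedom. The test was two-sided, edgeR's (4.0.16, under R 4.3.3) quasi-likelihood F-test after TMM scaling. Benjamini-Hochberg adjustment ran over all tested genes, and changed means an adjusted p under 0.05. SEs were back-calculated from the F statistic. The procedure was checked on simulated data. The genes and lists were chosen with earlier results of these data known. Values per library are given for genes that changed by at least 1 on the log2 scale with the medium or changed with genotype, and each list names the 3 genes of smallest p in WT cells. Alternatives used limma 3.58.1 and DESeq2 1.42.0, other filters and scalings, the groups compared alone, a replicate block, and leaving out libraries. Leaving out both libraries that stood apart was chosen after seeing the data, as were 2 promoter motifs.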

Additional observations from a re-analysis of the deposited data

Results flagged for a closer look

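In 7 of 108 sets of 4 libraries, 1 library lay far from the other 3 of its group (6.48%; chance gives about 1 in 20). Rarg had 53.5 CPM in library 2 of WT cells in DIAM, where the others had 46.1 to 47.2. Nr4a2 had 4.12 CPM in that same library, where the others had 2.95 to 3.12. Rxra had 196 CPM in library 2 of KO cells in DIAM, where the others had 183 to 184, and Vdr had 23.4 CPM in library 1 of that group, where the others had 24.3 to 24.4. In KO cells in DMEM, Nr2f6 had 50.4 CPM in library 3, where the others had 47.5 to 47.6. In WT cells in DMEM, library 1 was the low one for Ppard, with 37.5 CPM where the others had 42.5 to 42.8, and for Ncoa1, with 27.2 CPM where the others had 30.7 to 31.3. No gene passed the test of a difference in response between genotypes.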

How the results depend on the processing

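No fold change of the 27 genes that was called changed its sign under any alternative. Where the groups did not overlap, leaving out libraries could hardly turn a sign. With medium, 14 to 16 genes changed in each genotype when 1 library was left out, 13 (WT) and 14 (KO) with a filter at 5 CPM, 18 (WT) and 17 (KO) with upper-quartile or quantile scaling, and 16 in each genotype with both libraries that stood apart left out. The filter at 5 CPM removed Rarb and Ppara, which were called in both genotypes, and also Nr4a2 and Nr6a1. Upper-quartile scaling put the median log2 fold change of all genes at -0.12 in KO cells; with it Thra was lower there (-0.19, adjusted p = 0.0135). Quantile scaling gave 3291 higher and 4890 lower calls over all genes in WT cells. Between KO and WT cells in DIAM, the count of the 27 ranged from 0 to 8 without 1 library, and was 0 for the DIAM libraries alone and 0 without both libraries that stood apart. Over all genes it was 178 to 1480 without 1 library, 0 for the DIAM libraries alone, 362 without both libraries, 1873 with DESeq2 and 1810 in the authors' deposited table. Between KO and WT cells in DMEM it was 0 to 2 over all genes without 1 library, 1 with DESeq2 and 2 in the authors' table; for the interaction it was 0 to 1, 225 and 234. The cause was not tested. With the replicate number as a block, KO and WT cells in DIAM differed in 0 of the 27 and 1 of all genes, and the medium counts were 16 in each genotype. Across media, the deviations of libraries 1, 3 and 4 from their group means correlated with those of the same number (0.319, 0.148 and 0.276 in KO cells, 0.171, 0.267 and 0.253 in WT cells), and those of library 2 did not (0.0124 in KO and -0.0944 in WT cells). The same number was the best partner for 2 of 4 in KO and 3 of 4 in WT cells, a hint from the data and not the design; as not every pair passed 0.1, the numbers were not taken as pairs. Between genotypes the correlations were -0.216 to 0.174 in DMEM and -0.203 to -0.0412 in DIAM. For the interaction, a fit of only the groups compared equals the fit of all groups and was not run. Depth limits Rarb and Ppara most, the genes with the lowest counts.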
